A study of Arabidopsis thaliana with 24 samples.

Results

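Leaves of wild-type (WT) Arabidopsis thaliana were compared 1 h after they were sprayed with the herbicide 2,4-dichlorophenoxyacetic acid (2,4-D) and at 0 h. The WT 1 h group held 3 arrays and the WT 0 h group 6, together 9 of the 24 arrays in the series, and they were chosen by genotype and time in the sample labels. Plants of the WT 1 h group were Col-0 and received 23 mM 2,4-D in 1% dimethyl sulfoxide and 1% ethanol, and control plants of the study received both solvents without 2,4-D. The design text describes solvent-sprayed leaves taken at 1 and 72 h and 3 replicates per condition, whereas 6 WT arrays carry the label 0 h. Which of these 6 were sprayed with solvent, and when they were taken, was not stated in the labels or design text, so the effect of 2,4-D cannot be told apart from those of spraying, solvent and time of day. Each array measured RNA from leaves of similar size and stage, pooled from at least 5 plants grown under 16 h of light, on the Affymetrix ATH1 array, which reads each transcript with a set of short probes. The other arrays used here were WT at 72 h after 2,4-D (3 arrays) and the ACX genotype at 1 h (3 arrays) and 0 h (6 arrays). ACX is acx1-2, 1 insertion line in the Col-0 background that carries a mutation in a peroxisomal acyl-CoA oxidase, an enzyme of fatty acid beta-oxidation that yields hydrogen peroxide.

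2,4-D is a synthetic auxin. Auxins bind receptors of the TIR1/AFB family, which then mark the Aux/IAA repressor proteins for breakdown and free the ARF transcription factors, so that within minutes genes for new Aux/IAA repressors, SAUR growth proteins and GH3 enzymes are transcribed. GH3 enzymes couple auxin to amino acids, glycosyltransferases (UGT) couple it or other small molecules to sugars, and glutathione transferases (GST) couple reactive compounds to glutathione. Plant cells use the same conjugating enzymes to inactivate many herbicides.

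The deposited values are log2 expression values, so a difference of 1 is a 2-fold change, and a probe set or gene was called when limma's moderated test gave a Benjamini-Hochberg adjusted p below 0.05 over all 22746 probe sets. Between WT 1 h and WT 0 h, 6068 probe sets (26.7%) were called. Of these, 2509 (11%) were higher at 1 h and 3559 (15.6%) were lower. This split held for the values as deposited. With each array centred on its median, 2901 were higher and 2910 lower, 911 and 684 of them by at least 2-fold. As deposited, at least 2-fold changes were nearly balanced, with 835 probe sets higher (3.67%) and 789 lower (3.47%). Larger ones were not. At least 4-fold, 288 rose and 73 fell. At least 8-fold, 107 rose and 5 fell, and at least 16-fold, 44 rose and 0 fell. Probe sets that rose at least 2-fold started lower, at a median WT 0 h level of 6.86, than those that fell, at 8.29; the median over all probe sets was 6.02. The method behind the values compresses differences between low levels. Genes annotated by a symbol were 1580 of the probe sets, and 69 of these rose and 65 fell at least 2-fold. A further 11933 were annotated by a locus code alone, of which 335 rose and 328 fell at least 2-fold, and 8730 were not listed in the annotation, of which 417 rose and 386 fell.

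**Figure D1:**
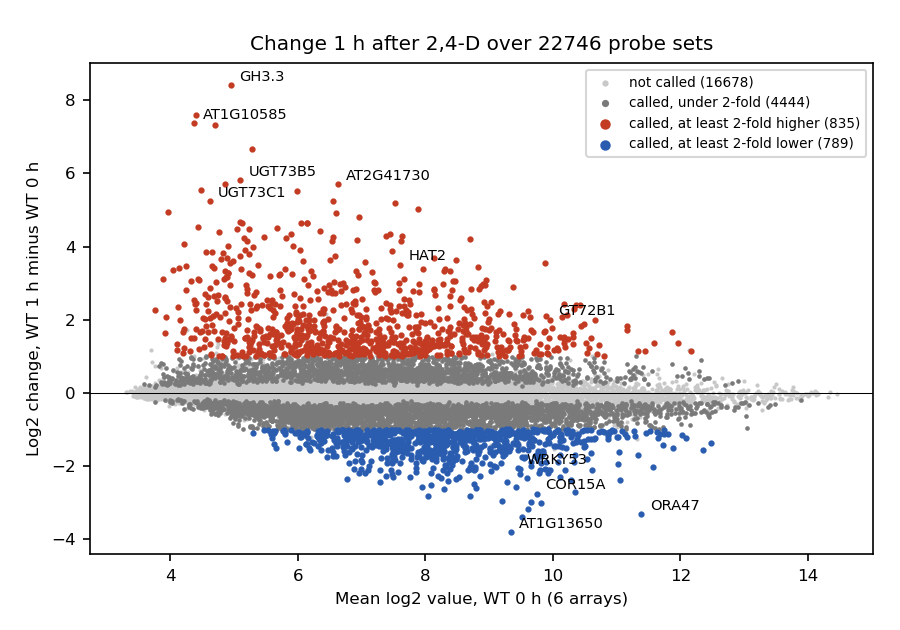
Log2 change (WT 1 h minus WT 0 h, vertical axis) of each of the 22746 probe sets against its mean log2 value over the 6 WT 0 h arrays (horizontal axis), with calls of at least 2-fold in red (higher, 835) and blue (lower, 789). The increases reach 8.41 and the decreases -3.81, and the blue points start at higher 0 h levels than the red ones.

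Arrays within a group resembled each other, with Pearson correlations over probe sets of 0.988 to 0.995 among the WT 1 h arrays and 0.975 to 0.997 among the WT 0 h arrays. WT 0 h replicate 3 stood apart, with a mean correlation of 0.978 to the other 5 against 0.987 to 0.990 for each of those. Leaving it out gave 6349 called probe sets, and 5698 of the 6068 calls stayed with their direction; below, a value without this array is given where its own level changes the picture. Nothing in the labels says what sets it apart. Array medians ran from 5.95 to 6.05, with WT 0 h replicates 4 to 6 at 6.03 or above and all WT 1 h arrays and WT 0 h replicates 1 to 3 at 5.98 or below. A call says nothing on whether cells were fewer or held less of an RNA, since leaf RNA was measured in bulk.

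Here and below, a gene counts as measured if the annotation pairs a probe set with that gene alone. The labelled tissue fitted the photosynthesis list, of which 4 of 24 genes were measured. RCA (Rubisco activase), LHCB4.2 (a light-harvesting protein), PRK and SBPASE (both of the Calvin cycle) stood at mean WT 0 h log2 levels between 13.30 and 14.31. None of the 4 was called at 1 h, with log2 changes between -0.17 and -0.10. Of the marker lists for other leaf cell types, FMA and AT1G22690 for guard cells and TRY for trichomes were measured, at WT 0 h levels of 6.85, 10.05 and 8.08. None of these 3 was called either, with log2 changes of -0.09, 0.53 and -0.61, and the marker lists of epidermis, phloem, xylem and meristem were not analysed here, since no probe set was paired with 1 of their genes alone.

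The largest increase of any named gene was that of GH3.3, an enzyme that couples auxin to amino acids. GH3.3 read 13.48, 13.19 and 13.43 in the 3 WT 1 h arrays (replicates 1 to 3), against 4.77, 4.97 and 5.12 in the WT 0 h arrays (lowest, median and highest of 6, as for every gene below). All arrays at 1 h lay far above all at 0 h. The log2 change was 8.41 (SE 0.30), which is 340-fold, with an adjusted p of 1.77e-14. WES1, which is GH3.5 and acts on auxin and salicylate, read 8.74, 8.89 and 9.28 at 1 h, against 5.41, 5.61 and 6.11 at 0 h. The groups did not overlap and the increase was 9.53-fold (adjusted p = 5.92e-12). GH3.1 rose 1.54-fold (adjusted p = 0.0356), a call lost in 7 of 20 alternative settings, whereas GH3.9 fell by 0.55 on the log2 scale (adjusted p = 0.00194), and GH3.17, with a change of 0.01, was not called.

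Genes of other routes of auxin inactivation also rose. IAGLU, a glucosyltransferase of indole-3-acetic acid, read 11.13, 11.27 and 11.08 at 1 h, against 7.81, 8.61 and 9.01 at 0 h. Its lowest array at 1 h was above its highest at 0 h, and it rose 6.08-fold (adjusted p = 1.26e-08). AT1G14130, a locus of the auxin conjugation and oxidation list, read 9.57, 9.14 and 9.06 at 1 h, against 5.95, 6.60 and 6.86 at 0 h, and rose 6.64-fold without overlap (adjusted p = 5.76e-08). UGT74D1, an auxin glucosyltransferase, rose 1.62-fold (adjusted p = 0.00192), and AT1G14120 and UGT84B1 of the same list were not called, with log2 changes of 0.29 and 0.04. In all, 6 of the 10 measured genes of auxin conjugation and oxidation rose and 1 fell, with a median log2 change of 0.66. Over all 13355 genes, each represented by 1 probe set, 9.9% rose and 14.3% fell, 3.01% and 2.94% by at least 2-fold, and the median change was -0.02.

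Among the Aux/IAA repressors of auxin signalling, 2 of the 7 measured rose and none fell. The list held 29 genes, and the response of those not measured cannot be read here. IAA29 read 9.98, 10.04 and 10.71 at 1 h, against 5.34, 5.57 and 7.47 at 0 h. The highest WT 0 h value belonged to replicate 3 and the other 5 were at or below 5.89, yet the groups did not overlap, and IAA29 rose 20.5-fold (log2 change 4.36, SE 0.37, adjusted p = 1.2e-08; 4.67 without replicate 3). IAA30 read 7.72, 7.95 and 8.30 at 1 h, against 4.88, 5.35 and 5.54 at 0 h, a 6.4-fold increase with no overlap (adjusted p = 7.89e-08). IAA18, IAA20, IAA31, IAA33 and IAA34 were not called, with log2 changes between -0.18 and 0.19.

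All 3 measured genes of the SAUR list (23 genes) and the growth regulator list (16 genes) rose. HAT2, a homeodomain-leucine zipper factor of the auxin response, read 11.05, 10.96 and 11.32 at 1 h, against 7.41, 7.53 and 8.14 at 0 h, an 11.4-fold increase without overlap (adjusted p = 2.98e-13). AT2G18010, the measured locus of the SAUR list, read 6.58, 6.31 and 6.52 at 1 h, against 4.05, 4.11 and 4.19 at 0 h. Its 6 arrays at 0 h lay close together near the low end of the scale, and it rose 5.11-fold (adjusted p = 2.51e-08). ARL, an ARGOS-like promoter of organ growth, rose 2.37-fold (adjusted p = 0.000355). No gene was called among the 2 measured LBD transcription factors, 2 genes of the auxin transport list (WAG2 and PID2) and 3 auxin synthesis genes. Their log2 changes lay between -0.11 and 0.40, and these lists held 13, 24 and 13 genes, most of them not measured.

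**Figure D2:**
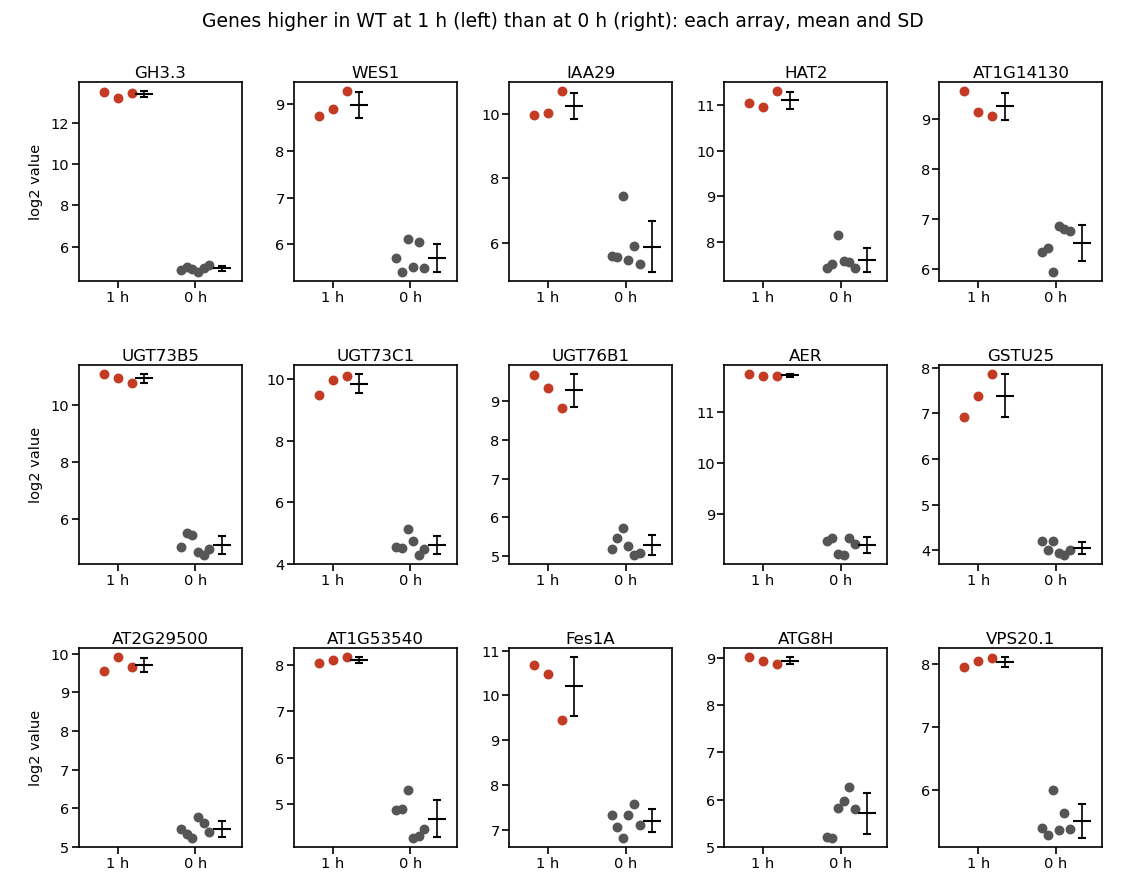
Log2 values of 15 genes that rose, with each WT 1 h array (red, left) and WT 0 h array (grey, right) as a point in replicate order from left to right, and the group's mean and SD as a bar. In each panel every WT 1 h array lies above every WT 0 h array; the high WT 0 h point of IAA29, 7.47, is replicate 3.

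Several genes that couple small molecules to sugars rose strongly. Of the 50 measured UDP-glycosyltransferases, 17 rose and 6 fell (median log2 change 0.22), and 13 of these increases and 4 of the decreases were at least 2-fold. UGT73B5 read 11.07, 10.93 and 10.76 at 1 h, against 4.76, 4.99 and 5.51 at 0 h. The groups were separated by more than 5 log2 units, and the increase was 56.7-fold (log2 change 5.82, SE 0.32, adjusted p = 1.11e-11). UGT73C1, which can glucosylate the cytokinin zeatin, read 9.51, 9.98 and 10.11 at 1 h, against 4.29, 4.53 and 5.15 at 0 h, and rose 38-fold without overlap (adjusted p = 1.44e-12).

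The UGT73 clade held 4 rising genes among 7 measured, with no decrease and a median log2 change of 2.86, and the UGT76 clade held 4 among 8, with a median of 0.39. UGT73B4, which lies next to UGT73B5, rose 14.3-fold, and UGT73B1 rose 7.25-fold (adjusted p = 1.22e-08 and 3.5e-10). UGT76B1, a glucosyltransferase of isoleucic acid and salicylate, read 9.66, 9.33 and 8.82 at 1 h, against 5.03, 5.22 and 5.74 at 0 h, a 15.7-fold increase without overlap (adjusted p = 2.23e-07). UGT76E12 rose 12.9-fold and UGT76E11 2.52-fold (adjusted p = 7.63e-07 and 0.00108). Near-identical members of these clades can share probes, so the values of neighbours such as UGT76E11 and UGT76E12 may not be independent.

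GT72B1, which conjugates chlorinated phenols and anilines, read 12.18, 12.02 and 11.70 at 1 h, against 9.02, 10.20 and 10.37 at 0 h, and the groups did not overlap (log2 change 2.01, SE 0.26, adjusted p = 5.06e-06). UGT87A2, a gene that acts in flowering time, rose 4.1-fold, UGT71B6, which glucosylates abscisic acid, 2.92-fold and UGT84A3, of the hydroxycinnamate glucosyltransferases, 2.31-fold (adjusted p = 1.54e-05, 0.000329 and 0.00925). Without WT 0 h replicate 3, the lowest array of UGT84A3 at 0 h, its log2 change was 0.94 in place of 1.21.

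The 6 that fell were 12% of the 50 glycosyltransferases, against 14.3% of all genes. They included glycosyltransferases of phenolic compounds, but GT72B1 and UGT84A3, described above, rose. UGT78D2, a flavonoid 3-O-glucosyltransferase, read 8.81, 8.58 and 8.15 at 1 h, against 8.59, 9.71 and 10.12 at 0 h. WT 0 h replicate 3 gave the lowest of the 0 h values and fell among the 1 h arrays, and the other 5 did not; the log2 change was -1.11 (SE 0.25, adjusted p = 0.00195), and -1.32 without replicate 3. UGT78D1, a flavonol rhamnosyltransferase, changed by -1.11 and UGT84A1, a hydroxycinnamate glucosyltransferase, by -1.06 on the log2 scale (adjusted p = 0.00746 and 0.0229). In both, WT 0 h replicate 3 was the lowest 0 h array; it overlapped the 1 h arrays of UGT78D1 and lay below those of UGT84A1. Against 0 h replicates 1 to 3 alone, UGT78D2, UGT78D1 and UGT84A1 changed by -0.79, -0.70 and -0.43 without a call (adjusted p = 0.0502, 0.0939 and 0.4). The calls of UGT78D2 and UGT78D1 were lost in 1 and 2 of 20 alternative settings, and that of UGT84A1 in 8 of the 19 that tested it. UGT72B3 fell by 1.56 on the log2 scale with no overlap (adjusted p = 4.04e-05).

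Of 14 glutathione transferases, 2 (14.3%) rose and 3 (21.4%) fell, against 9.9% and 14.3% of all genes. Their median log2 change was -0.08. GSTU25, which can conjugate trinitrotoluene, read 6.91, 7.39 and 7.87 at 1 h, against 3.89, 4.0035 and 4.2 at 0 h, a 10.2-fold increase in which all arrays at 1 h were clear of those at 0 h (adjusted p = 1.83e-05). GSTU16 rose 1.47-fold (adjusted p = 0.00664), while GSTU27, GSTU18 and GSTU28 fell, with log2 changes of -0.97, -0.48 and -0.37 (adjusted p = 0.00786, 0.00664 and 0.00888).

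All 5 measured genes of a list named for xenobiotic oxidation, reduction and export, which held 20 genes, rose, with a median log2 change of 1.93. AER, an alkenal reductase that removes reactive products of lipid oxidation, read 11.75, 11.70 and 11.71 at 1 h, against 8.19, 8.44 and 8.53 at 0 h. Its 3 arrays at 1 h differed by less than 0.1, and it rose 10.1-fold (SE of the log2 change 0.14, adjusted p = 2.98e-13). AT5G16960 and AT5G16980, the genes on either side of AER, rose 7.79-fold and 8.97-fold (adjusted p = 1.73e-11 and 1.62e-09). NDB2, an alternative NADH dehydrogenase of mitochondria, read 10.94, 11.12 and 10.66 at 1 h, against 7.24, 9.29 and 9.51 at 0 h. The lowest WT 0 h value is that of replicate 3, and the log2 change was 1.92 (SE 0.40, adjusted p = 0.00103), or 1.58 without it. AT2G21640 of the same list rose 4.59-fold and AT2G04070 1.62-fold (adjusted p = 1.13e-06 and 0.00735). AT2G04050 rose 1.6-fold (adjusted p = 0.0489, and 0.0664 without WT 0 h replicate 3). The calls of AT2G04070 and AT2G04050 were lost in 2 and 10 of the 19 alternative settings that tested them.

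Outside this list, OCT5, a transporter of the organic cation family, read 11.86, 11.70 and 11.45 at 1 h, against 6.27, 7.57 and 7.85 at 0 h, a 19.6-fold increase without overlap (adjusted p = 1.39e-09). Of 10 aldehyde dehydrogenases and alkenal reductases, AER among them, 2 (20%) rose and 3 (30%) fell, against 9.9% and 14.3% of all genes. Their median log2 change was -0.15. ALDH7B4, an aldehyde dehydrogenase of stress responses, rose 3.44-fold (adjusted p = 2.22e-07), while AOR, ALDH11A3 and ALDH22A1 fell, with log2 changes of -0.32, -0.36 and -0.28 (adjusted p = 0.00528, 0.000705 and 0.033). The call of ALDH22A1 was lost in 8 of 20 alternative settings. Of 23 cytochrome P450 genes, 1 rose and 4 fell, with a median log2 change of 0.00. The riser, CYP71B22, reached 8.47, 7.96 and 8.10 at 1 h, against 5.72, 6.04 and 7.32 at 0 h, with replicate 3 the highest at 0 h (log2 change 2.01, adjusted p = 0.000284; 2.24 without it). CYP71B28 fell by 1.18 on the log2 scale (adjusted p = 4.18e-05). Of the antioxidant enzymes, GR, a glutathione reductase, and TAPX, the thylakoid ascorbate peroxidase, fell, with log2 changes of -0.51 and -0.47, while GR1 and SAPX, with changes of 0.14 and 0.05, were not called.

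**Figure D3:**
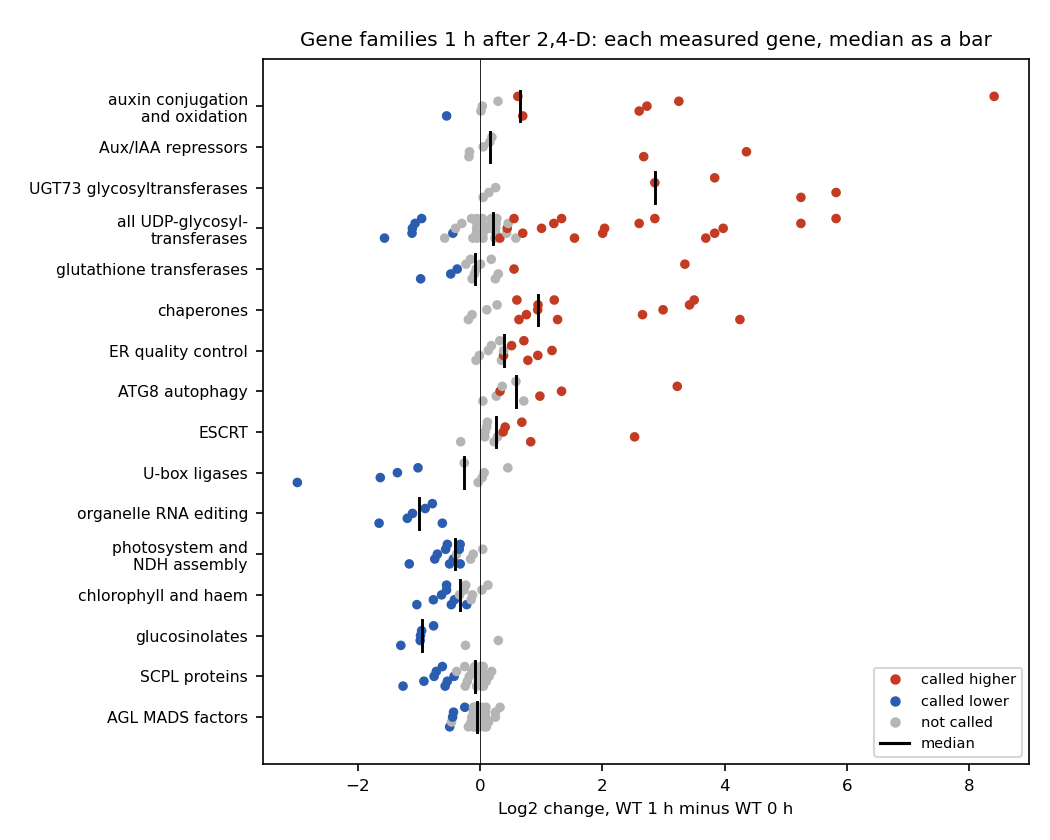
Log2 change (WT 1 h minus WT 0 h, horizontal axis) of each measured gene in 16 lists and families, coloured red (called higher), blue (called lower) or grey (not called), with the median of each as a black bar. Medians run from 2.86 for UGT73 glycosyltransferases to -1.002 for organelle RNA editing, and all genes together have a median of -0.02. The lists were chosen with earlier results known and the families with their values in view.

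Most protein folding genes of the chaperone family, which spans several cell compartments, rose: of 16 measured chaperones and cochaperones, 12 rose and none fell, and the median log2 change was 0.95. AT2G29500, a locus of the heat shock list, read 9.56, 9.92 and 9.66 at 1 h, against 5.23, 5.42 and 5.77 at 0 h. The groups did not overlap and the increase was 19-fold (log2 change 4.25, SE 0.23, adjusted p = 9.44e-12). AT5G48570, for which RefSeq lists the synonym ROF2, an immunophilin that works with heat shock proteins, read 8.79, 9.33 and 8.52 at 1 h, against 5.05, 5.44 and 5.62 at 0 h, an 11.3-fold increase without overlap (adjusted p = 1.61e-09). AT1G53540, also of the heat shock list, rose 10.8-fold and AT1G52560 1.66-fold (adjusted p = 5.21e-11 and 0.00294). ATHSP22.0, a small heat shock protein of the endoplasmic reticulum, rose 2.32-fold (adjusted p = 3.66e-06).

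Among the cochaperones, Fes1A, which protects cytosolic Hsp70, read 10.69, 10.47 and 9.46 at 1 h, against 6.83, 7.23 and 7.58 at 0 h. Replicate 3 was the lowest at 1 h and still more than 1.5 log2 units above every array at 0 h (fold 7.97, adjusted p = 2.51e-08). Hop3, which links Hsp70 to Hsp90, read 7.04, 7.99 and 6.98 at 1 h, against 4.31, 4.73 and 4.87 at 0 h, a 6.31-fold increase without overlap (adjusted p = 1.95e-07), and Hop2 rose 1.93-fold (adjusted p = 1.82e-06). Hsp70-2 changed 2.41-fold (adjusted p = 0.0177), but its arrays, 9.90, 9.20 and 7.98 at 1 h and 6.91, 7.92 and 8.01 at 0 h, overlapped, and its call was lost in 4 of 20 alternative settings. Hop1, Fes1B, Fes1C and SQN were not called, with log2 changes between -0.19 and 0.28.

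In the endoplasmic reticulum (ER), 6 of 13 quality control genes rose and none fell, with a median log2 change of 0.39. BZIP60, the transcription factor of the ER stress response that IRE1 activates by splicing, read 11.19, 10.95 and 10.62 at 1 h, against 9.08, 9.83 and 10.02 at 0 h. WT 0 h replicate 3 was the lowest array, the groups did not overlap, and the log2 change was 1.18 (SE 0.23, adjusted p = 0.000668). OS9, a lectin that hands misfolded glycoproteins to degradation, rose 1.92-fold, ATERDJ3B, an ER cochaperone, 1.72-fold and DER1, a Derlin of the export channel, 1.64-fold (adjusted p = 0.000103, 0.000125 and 0.0064). BZIP17, an ER membrane-bound stress factor, rose 1.43-fold (adjusted p = 0.0164). For BZIP28, of the same kind, the adjusted p was 0.0421 with and 0.0697 without WT 0 h replicate 3. CRT1b, a calreticulin, and PDIL5-1, a disulfide isomerase, were not called, with log2 changes of 0.32 and 0.19.

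Recycling genes rose in part. Of the 9 ATG8 genes, which encode the ubiquitin-like proteins that coat forming autophagosomes, 4 rose and none fell (median log2 change 0.59). ATG8H read 9.01, 8.93 and 8.87 at 1 h, against 5.19, 5.81 and 6.27 at 0 h, and rose 9.35-fold without overlap (log2 change 3.23, SE 0.25, adjusted p = 2.52e-09). ATG8B rose 2.52-fold, APG8A 1.97-fold and APG8H 1.25-fold (adjusted p = 0.000457, 0.00135 and 0.0282), the last with overlapping arrays. Of 12 genes of the ESCRT complexes, which sort membrane proteins into the vacuolar pathway, 5 rose and none fell (median 0.26). VPS20.1, an ESCRT-III subunit, read 7.95, 8.06 and 8.11 at 1 h, against 5.28, 5.39 and 6.01 at 0 h, a 5.77-fold increase (adjusted p = 2.31e-08). VPS60.1 and SNF7.1, further ESCRT-III proteins, rose 1.78-fold and 1.61-fold (adjusted p = 0.00103 and 0.000634).

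Of 12 ubiquitin-conjugating enzymes, 4 (33.3%) rose and none fell, against 9.9% and 14.3% of all genes. The largest increase was that of UBC19, an E2 enzyme of the cell cycle ubiquitin ligase. UBC19 read 10.18, 10.24 and 10.64 at 1 h, against 8.70, 8.90 and 9.21 at 0 h (fold 2.71, adjusted p = 1.14e-08). Among 8 genes of branched-chain amino acid breakdown and its electron transfer, 4 rose and none fell. IVD, the isovaleryl-CoA dehydrogenase of leucine breakdown, read 7.88, 8.20 and 8.46 at 1 h, against 6.52, 6.83 and 6.99 at 0 h, without overlap (fold 2.6, adjusted p = 2.6e-06). ETFALPHA and ETFBETA, the subunits of the flavoprotein that takes its electrons, rose 1.42-fold and 1.46-fold (adjusted p = 0.00603 and 0.0107). MCCA and MCCB, the subunits of the next enzyme of leucine breakdown, were not called, with log2 changes of 0.21 and -0.36.

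Of the 20 largest increases among genes whose groups did not overlap, 13 belonged to genes annotated by a locus code alone, which make up 88.3% of the probe sets with 1 gene. Over all probe sets, 11.1% were higher at 1 h without overlap and 15.1% lower. AT1G10585 read 11.66, 11.81 and 11.80 at 1 h, against 4.06, 4.42 and 4.60 at 0 h. Among genes with a symbol or locus code this was the largest increase after that of GH3.3, 167-fold (log2 change 7.38, SE 0.25, adjusted p = 8.72e-15), and its neighbour AT1G10580 rose by 1.79 on the log2 scale. AT2G41730 read 12.58, 12.18 and 12.23 at 1 h, against 6.37, 6.52 and 7.25 at 0 h (52-fold, adjusted p = 1.38e-10). AT5G51830 read 11.47, 11.48 and 11.57 at 1 h, against 5.66, 5.9958 and 6.25 at 0 h (46-fold, adjusted p = 1.03e-11).

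AT4G01870 reached 12.96, 13.01 and 12.76 at 1 h, against 7.49, 7.92 and 8.24 at 0 h, a 32.7-fold increase. AT1G59660 read 9.68, 10.06 and 9.57 at 1 h, against 4.86, 5.04 and 5.39 at 0 h, a 25.5-fold increase. The groups were more than 4 log2 units apart for each of them (adjusted p = 1.18e-09 and 1.43e-13). SUFE2, a sulfur-transfer protein of iron-sulfur cluster assembly, read 9.86, 9.69 and 9.81 at 1 h, against 4.82, 5.17 and 5.40 at 0 h (25.2-fold, adjusted p = 2.66e-07). AT5G14730, AT3G23550, AT4G22530, AT3G04000, AT1G52200, AT1G09500 and AT1G63530 completed the 20, with log2 changes between 4.0034 and 4.47. For these 7 genes the groups did not overlap in any case, and their adjusted p ran from 4.04e-12 to 5.54e-07.

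Neighbouring genes on a chromosome sometimes rose together. In the gene order of the RefSeq annotation (TAIR10.1), 6055 neighbouring pairs had both genes measured; in 18 pairs both genes rose at least 2-fold, in 11 both fell, and in 7 they changed at least 2-fold in opposite directions. Over all genes, 3.01% rose and 2.94% fell at least 2-fold. Whether the pairs outnumber those that would arise without any link between neighbours was not tested. The pairs formed 17 runs of rising and 9 of falling genes, most of 2 genes. The run AT5G16960, AER and AT5G16980 held 3 rising genes. AT3G04000 and AT3G04010 changed by 4.24 and 3.64 on the log2 scale, and UGT73B5 and UGT73B4 by 5.82 and 3.84. The longest falling run held 4 genes, AT2G29290, AT2G29300, AT2G29310 and AT2G29320, with log2 changes of -1.27, -2.07, -1.55 and -1.06. Shared probes between adjacent copies were not tested.

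Genes of immune perception and of rapid responses were examined next. EFR, the receptor for the bacterial elongation factor EF-Tu, read 7.42, 6.94 and 7.21 at 1 h, against 5.47, 5.67 and 5.88 at 0 h (2.86-fold without overlap, adjusted p = 3.08e-06). BIK1, a kinase that acts directly below such receptors, rose 3.51-fold, and SD1-29, the receptor of bacterial hydroxy fatty acids, 2.4-fold (adjusted p = 0.0032 and 0.00601); these 3 genes were put together with their values known. Of the 9 measured genes of the rapid wound and touch list, 3 fell, 1 rose and 5 were not called: CML37, CML38, STZ, PUB22 and PUB24, with log2 changes between -0.90 and 0.45. WRKY53, a transcription factor of senescence and defence, read 7.89, 7.27 and 7.07 at 1 h, against 8.55, 9.52 and 9.92 at 0 h. WT 0 h replicate 3 was the lowest of the 0 h arrays but above all at 1 h, and WRKY53 fell by 2.05 on the log2 scale (SE 0.39, adjusted p = 0.000433). WRKY22, a factor of the response to bacterial flagellin, fell by 1.57 (adjusted p = 0.000176), whereas WRKY6 changed by 1.0972 with overlapping arrays (adjusted p = 0.0483; 0.0772 without replicate 3).

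Of 9 measured U-box ubiquitin ligases, 4 fell and none rose. PUB19, a ligase of abscisic acid signalling, read 7.06, 6.62 and 6.32 at 1 h, against 6.5044, 10.20 and 10.63 at 0 h. The 0 h arrays split, with replicate 3 among the 1 h arrays and the other 5 at 9.86 or above. The log2 change was -2.99 (SE 0.71, adjusted p = 0.00311), or -3.62 without replicate 3 (adjusted p = 1.44e-05). Against 0 h replicates 1 to 3 alone it was -2.28, without a call (adjusted p = 0.0644). PUB25 and PUB26, which mark BIK1 for breakdown, and PUB23, which dampens immune signalling, fell, with log2 changes of -1.35, -1.63 and -1.02 (adjusted p = 0.000605, 0.00127 and 0.00814). PUB22 and PUB24, which work with PUB23, were not called, with log2 changes of -0.26 and 0.45.

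Of the 7 measured genes in the jasmonate, cytokinin, gibberellin and ethylene lists, 4 fell and 1 rose. These lists held 29, 19, 11 and 21 genes, most of them not measured. ORA47, an ERF factor that starts jasmonate synthesis, read 7.64, 8.03 and 8.56 at 1 h, against 10.90, 11.42 and 11.92 at 0 h. The groups lay more than 2 log2 units apart, and ORA47, which followed AT1G13650 among decreases of genes with a symbol or locus code, fell by 3.31 (SE 0.42, adjusted p = 3.62e-06). ARR15, a type-A response regulator that is itself induced by cytokinin, read 5.99, 5.92 and 5.98 at 1 h, against 6.99, 7.27 and 7.59 at 0 h, a log2 change of -1.3019 without overlap (adjusted p = 0.00303). RR16, the other measured gene of the cytokinin list, fell by 1.23 on the log2 scale (adjusted p = 0.00191). GID1A, a gibberellin receptor, fell by 0.78 (adjusted p = 0.00201), and EIN3, the master factor of ethylene responses, rose 1.62-fold (adjusted p = 1.25e-05).

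The 20 largest decreases were smaller than the largest increases, with log2 changes from -3.81 to -2.12, and 17 of the 20 genes had a locus code alone, a share near that of the annotation. AT1G13650 read 4.78, 5.64 and 6.20 at 1 h, against 9.05, 9.28 and 9.95 at 0 h. All 1 h arrays lay more than 2 log2 units below those at 0 h, and it fell by 3.81 (SE 0.47, adjusted p = 3.08e-06). AT4G37240, AT2G40460, AT4G29780 and AT2G42760 fell, with log2 changes of -2.83, -2.82, -2.70 and -2.45 (adjusted p = 0.00218, 4.92e-06, 6.57e-08 and 9.62e-09). AT5G14700 read 4.99, 4.74 and 4.85 at 1 h, against 4.99, 7.75 and 8.10 at 0 h. Its lowest 0 h array, replicate 3, was within 0.1 of a 1 h array, and the log2 change was -2.43 with and -2.89 without it. ATPMEPCRB, a pectin methylesterase, read 7.12, 5.55 and 5.71 at 1 h, against 8.21, 8.44 and 8.80 at 0 h (log2 change -2.35, adjusted p = 2.03e-05).

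**Figure D4:**
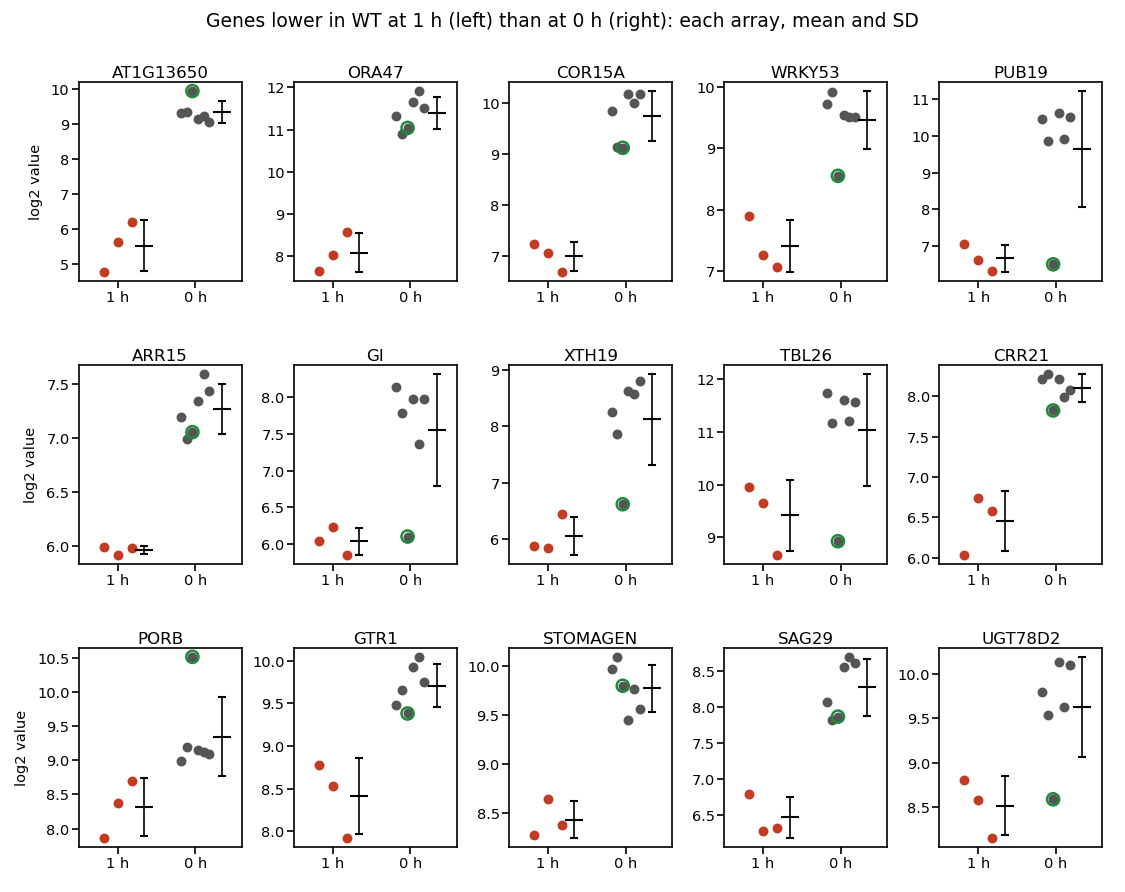
Log2 values of 15 genes that fell, with each WT 1 h array (red, left) and WT 0 h array (grey, right) as a point in replicate order from left to right, and the group's mean and SD as a bar. A green ring marks WT 0 h replicate 3, which lies within or near the 1 h arrays for PUB19, GI, TBL26 and UGT78D2 and is the highest array of PORB, at 10.52.

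In the cell wall families the share of members that fell was not far from the 14.3% of all genes: 22.2% of 9 annotated XTH genes, 16.7% of 18 expansins, 20% of 15 GH9 genes and 22.7% of 22 TBL genes. XTH19, a xyloglucan endotransglucosylase that loosens and rebuilds the wall, read 5.89, 5.84 and 6.45 at 1 h, against 6.62, 8.40 and 8.80 at 0 h. The lowest 0 h array was again replicate 3, and the log2 change was -2.06 (SE 0.50, adjusted p = 0.0038), or -2.36 without it. Against 0 h replicates 1 to 3 alone, XTH19 changed by -1.52 without a call (adjusted p = 0.0641). XTH32 fell by 1.81 on the log2 scale (adjusted p = 7.63e-07), and the other 7 XTH genes were not called. Of 18 expansins, proteins that loosen the wall, EXPB1 and EXLA2 were among the 3 that fell, with log2 changes of -1.59 and -0.99, while EXPA4 rose 2.13-fold (adjusted p = 0.000291, 0.00195 and 0.00227).

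GH9C2, an endoglucanase, read 6.17, 6.73 and 6.55 at 1 h, against 7.55, 8.66 and 8.88 at 0 h, with no overlap (log2 change -1.89, adjusted p = 2.03e-05), and GH9B8 fell by 1.11 (adjusted p = 0.00145). These were 2 of 3 decreases among 15 GH9 genes. Among 22 TBL genes of wall polymer acetylation, 5 fell and 1 rose. TBL28 fell by 1.45 and TBL37 rose by 2.02 on the log2 scale (adjusted p = 8.11e-06 and 4.09e-11). TBL26 read 9.96, 9.64 and 8.66 at 1 h, against 8.93, 11.39 and 11.74 at 0 h, with replicate 3 the lowest and overlapping the 1 h arrays (log2 change -1.62, adjusted p = 0.0235; -2.04 without it). Against 0 h replicates 1 to 3 alone, TBL26 changed by -1.19 without a call (adjusted p = 0.201). Its call was lost in 3 of 20 alternative settings. Of 29 serine carboxypeptidase-like genes 8 fell and none rose, a share of 27.6%. Of 9 subtilases, which are secreted proteases, 3 (33.3%) rose and 1 (11.1%) fell, against 9.9% and 14.3% of all genes. SBT3.5, SBT3.3 and ATSBT5.2 had log2 changes of 2.59, 1.90 and 0.80, and SBT1.3 one of -1.19 (adjusted p = 1.89e-06, 6.22e-05, 0.0423 and 5.55e-05). The call of ATSBT5.2 was lost in 10 of 20 alternative settings.

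Many genes that build the photosynthetic machinery fell, most of them less than 2-fold. Like the other families formed by symbol, the families below were put together with their values in view. Their counts are a description. All 6 measured genes of organelle RNA editing and processing fell, with a median log2 change of -1.002. CRR21, an RNA-binding PPR protein that edits a plastid ndhD transcript, read 6.03, 6.74 and 6.58 at 1 h, against 7.82, 8.15 and 8.28 at 0 h. The groups did not overlap, and CRR21 fell by 1.65 (SE 0.19, adjusted p = 1.27e-06). LPA66, which edits psbF transcripts, and CFM3A, a factor of plastid intron splicing, fell, with log2 changes of -1.19 and -1.11 (adjusted p = 5.39e-05 and 0.0011). Of 14 genes for assembly of photosystems and the NDH complex, 10 fell and none rose (median -0.41). The log2 change was -1.16 for CRR42, an NDH assembly factor, and -0.74 for PAM68, a photosystem II assembly factor (adjusted p = 9.98e-06 and 0.000806).

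Of 15 genes of chlorophyll and haem synthesis, 8 fell and none rose, with a median log2 change of -0.34. PORB, a light-dependent protochlorophyllide reductase, read 7.86, 8.38 and 8.70 at 1 h, against 8.99, 9.14 and 10.52 at 0 h. Its highest 0 h array, replicate 3, stood more than 1 log2 unit above the other 5, and the log2 change was -1.03 (SE 0.30, adjusted p = 0.012), or -0.80 without it. HEME1 and HEME2, uroporphyrinogen decarboxylases, and CHLM, the magnesium protoporphyrin methyltransferase, fell, with log2 changes of -0.76, -0.63 and -0.55 (adjusted p = 0.00138, 0.000593 and 0.00311). Transcripts of 69 plastid-encoded genes had a median log2 change of -0.25, and 13 of them (18.8%, against 14.3% over all genes) fell and none rose. The 3 decreases of at least 2-fold were those of rbcL, the large subunit of Rubisco, psaC, a photosystem I subunit, and rpl36, a ribosomal protein, with log2 changes of -1.11, -1.03 and -1.13 (adjusted p = 0.00241, 0.000639 and 0.0382), and the call of rpl36 was lost in 7 of 20 alternative settings.

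Glucosinolate genes fell as well: of 7 measured genes of the regulation, synthesis and transport of these defence compounds, 5 fell and none rose (median log2 change -0.96). GTR1, a glucosinolate importer, read 8.78, 8.53 and 7.92 at 1 h, against 9.38, 9.70 and 10.04 at 0 h, with no overlap (log2 change -1.296, SE 0.16, adjusted p = 3.53e-06). GTR2, its partner, and MYC4, a regulator of the synthesis genes, fell, with log2 changes of -0.76 and -0.97 (adjusted p = 0.00141 and 0.00441). UGT74B1, which glucosylates the precursor, and AOP1, an oxygenase of the family that modifies side chains, changed by -0.96 and -0.98 (adjusted p = 0.0133 and 0.0263). The groups overlapped at WT 0 h replicate 3 for UGT74B1 and at WT 0 h replicate 2 for AOP1. The calls of UGT74B1 and AOP1 were lost in 4 and 9 of 20 alternative settings. Against 0 h replicates 1 to 3 alone they changed by -0.43 and -0.44 without a call (adjusted p = 0.26 and 0.223). Against 0 h replicates 4 to 6 alone they changed by -1.48 and -1.52. GTR1, GTR2 and MYC4 stayed called against either set. Their log2 changes were -1.10, -0.51 and -0.61 against the first and -1.50, -1.01 and -1.34 against the second. APS3, an ATP sulfurylase of sulfate assimilation, fell by 0.99 (adjusted p = 4.75e-06).

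Among 20 SWEET and other sugar carriers, 7 (35%) fell and 1 (5%) rose, against 14.3% and 9.9% of all genes. SAG29, which is SWEET15, a sugar exporter linked to senescence, read 6.79, 6.28 and 6.32 at 1 h, against 7.82, 8.31 and 8.69 at 0 h, with no overlap (log2 change -1.81, adjusted p = 0.00123). SFP2, a sugar-porter family gene, fell by 1.16 (adjusted p = 1.64e-05), and SWEET4, the riser, reached 6.30, 6.73 and 8.19 at 1 h, against 5.47, 5.6015 and 6.32 at 0 h (adjusted p = 0.00415), where 1 array at 0 h overlapped the 1 h group. COR15A, a cold-induced protein that protects chloroplast membranes, read 7.25, 7.06 and 6.69 at 1 h, against 9.13, 9.93 and 10.19 at 0 h. The groups did not overlap, and COR15A fell by 2.7526 (SE 0.36, adjusted p = 5.73e-06), and the log2 change of its neighbour COR15B was -1.31 (adjusted p = 0.00167). LTI30, a dehydrin, had an adjusted p of 0.0483 for a log2 change of 1.31, and of 0.0807 without WT 0 h replicate 3.

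GI, a clock protein whose transcript cycles over the day, read 6.04, 6.23 and 5.85 at 1 h, against 6.10, 7.88 and 8.14 at 0 h. WT 0 h replicate 3 lay within the 1 h arrays and the other 5 above them, and the log2 change was -1.52 (adjusted p = 0.000934), or -1.81 without that array. CCL, the other measured gene of the clock list, changed by 0.26 on the log2 scale and was not called. STOMAGEN, a peptide that promotes stomata, and BETA-VPE, a vacuolar processing enzyme, fell, with log2 changes of -1.34 and -1.14 (adjusted p = 0.0043 and 0.000128).

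Levels at 1 h were next compared with those at 72 h after 2,4-D in WT. The difference of means does not use the WT 0 h arrays, but the adjusted p rests on a spread estimated from all 24 arrays. Over all probe sets, 49.6% were called between 72 h and 1 h, 25.2% higher and 24.4% lower at 72 h. This split held for the values as deposited: 5736 were higher and 5557 lower, against 4316 higher and 10451 lower when each array was centred on its median. Of the 835 probe sets that rose at least 2-fold at 1 h, 464 (55.6%) were lower at 72 h than at 1 h, 121 (14.5%) were higher and 250 (29.9%) were not called. Of the 789 that fell at least 2-fold, 373 (47.3%) were higher at 72 h, 123 (15.6%) were lower and 293 (37.1%) were not called. Both comparisons use the WT 1 h arrays, so these shares are a description.

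GH3.3 read 12.94, 13.74 and 13.68 at 72 h, against 13.48, 13.19 and 13.43 at 1 h, and the difference was not called (log2 difference 0.09, adjusted p = 0.852). WES1 read 11.23, 10.82 and 10.70 at 72 h, against 8.74, 8.89 and 9.28 at 1 h, a further rise of 1.95 (adjusted p = 3.96e-08), and GH3.1 rose further by 2.44 (adjusted p = 4.02e-08). IAA29 did not pass the test either, with a log2 difference of -0.53 (adjusted p = 0.31), while IAGLU and AT1G14130 were lower at 72 h than at 1 h, with log2 differences of -1.87 and -1.17 (adjusted p = 2.7e-06 and 0.0023).

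Several detoxification and folding genes were lower at 72 h than at 1 h. UGT73C1 read 4.88, 5.47 and 5.68 at 72 h, against 9.51, 9.98 and 10.11 at 1 h (log2 difference -4.52, adjusted p = 3.96e-11). OCT5, AER, GSTU25 and AT2G29500 were also lower at 72 h, with log2 differences of -4.95, -2.71, -3.13 and -3.64 (adjusted p = 3.32e-10, 2.13e-11, 7.02e-05 and 2.69e-10). AT2G41730 and AT1G59660 had mean levels of 6.63 and 5.10 at 0 h, 12.33 and 9.77 at 1 h and 6.73 and 5.26 at 72 h. Of the 20 largest increases, 16 were lower at 72 h than at 1 h, none was higher and 4 were not called: GH3.3, SUFE2, IAA29 and AT1G09500. In contrast, ATG8B and APG8A were higher at 72 h by 2.13 and 1.83 (adjusted p = 3.54e-06 and 2.18e-06), and IVD by 1.66 (adjusted p = 3.49e-07).

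Among the genes that fell at 1 h, SAG29 read 9.54, 11.35 and 12.42 at 72 h, against 6.79, 6.28 and 6.32 at 1 h, 4.64 higher on the log2 scale (adjusted p = 1.87e-08). PUB19 was higher at 72 h by 5.05, AT2G40460 by 3.66, AT3G56080 by 3.44 and COR15A by 2.18 (adjusted p = 2.81e-05, 2.4e-07, 1.65e-10 and 0.000153). ORA47 and AT1G13650 were not called, with log2 differences of -0.37 and -0.28 (adjusted p = 0.535 and 0.691). PORB, HEME1, HEME2 and CHLM were lower still at 72 h, with log2 differences of -2.53, -2.15, -2.04 and -1.59 (adjusted p = 2.67e-06, 5.42e-09, 1.56e-10 and 1.56e-08), whereas CRR21 and LPA66, with differences of 0.11 and 0.29, were not called.

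**Figure D5:**
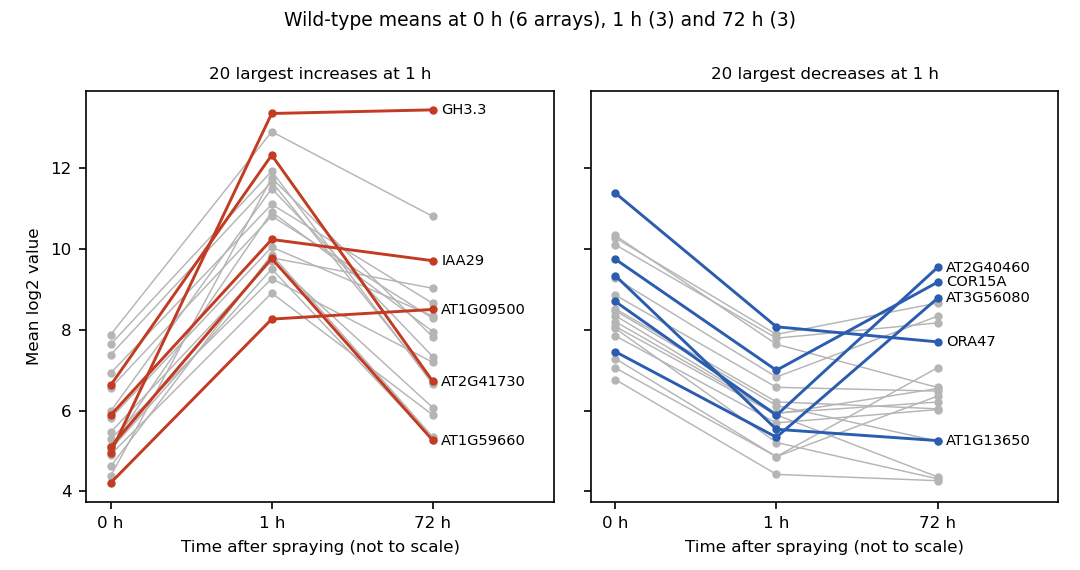
Mean log2 values at 0 h (6 WT arrays), 1 h (3) and 72 h (3), not spaced to scale, of the 20 genes with the largest increases (left) and the 20 with the largest decreases (right), with named examples in colour. GH3.3 and IAA29 were not called between 72 h and 1 h, AT2G41730 and AT1G59660 return near their 0 h level, and AT2G40460 and AT3G56080 pass theirs.

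The change at 1 h was set against that in ACX, each genotype with its own 0 h arrays. Of the 835 probe sets that rose at least 2-fold in WT, 713 (85.4%) were also called higher in ACX, and of the 789 that fell, 648 (82.1%) were also called lower. The 20 largest increases were all called higher in ACX, and 18 of the 20 largest decreases were called lower. The share of all probe sets called in ACX was not worked out, so these counts are a description. GH3.3 changed by 7.78 in ACX and 8.41 in WT on the log2 scale, UGT73C1 by 5.28 in ACX and 5.25 in WT, and AER by 3.55 in ACX and 3.33 in WT.

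A test of the difference between the changes called 33 probe sets (0.145%), 12 (0.0528%) with a higher and 21 (0.0923%) with a lower change in ACX, and 18 of the 33 had 1 gene. COR15A in ACX read 7.79, 7.54 and 7.08 at 1 h, against 7.16, 7.51 and 7.76 at 0 h. The ACX arrays overlapped and the WT arrays did not; the changes were -0.01 in ACX and -2.7526 in WT, a difference of 2.74 (SE 0.51, adjusted p = 0.0286). This call was lost in 9 of 28 alternative settings, with an adjusted p of up to 0.145. AT5G48570 in ACX read 8.33, 8.30 and 8.78 at 1 h, against 6.89, 7.32 and 7.58 at 0 h. Its change was 1.21 in ACX and 3.5034 in WT; its groups did not overlap in either genotype (difference -2.29, SE 0.37, adjusted p = 0.00954).

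XTH18 in ACX read 6.27, 6.90 and 7.03 at 1 h, against 8.76, 9.17 and 9.69 at 0 h, while in WT it read 8.27, 7.05 and 7.32 at 1 h, against 6.79, 7.27 and 7.86 at 0 h. It changed by -2.52 in ACX and, without a call, by 0.26 in WT (difference -2.77, adjusted p = 0.00676). GTR1 changed by -2.71 in ACX and -1.296 in WT, and APS3 by -2.14 in ACX and -0.99 in WT (adjusted p of the difference 0.00954 and 0.00745). Of the genes with a symbol or locus code, AT5G03230 had the smallest p among higher changes in ACX, with 1.86 in ACX and -0.29 in WT (adjusted p = 0.00417), and AT1G69840 among lower changes, with 0.14 in ACX and 1.34 in WT (adjusted p = 0.00589). This count depended on the arrays used: it was 138 without WT 0 h replicate 3 and 6 without ACX 1 h replicate 1.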

How the data were processed

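Each deposited value is the log2 level of a probe set. The submitters' processing notes name RMA, with which the authors normalized the arrays, and limma, without versions or settings. The values were used as deposited, without 64 control probe sets and with no filter on low levels. The number of arrays limits the precision.

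limma 3.58.1 in R 4.3.3 modelled all 24 arrays together with a mean for each of 6 groups (residual degrees of freedom 18, prior 3.23), two-sided, and Benjamini-Hochberg adjustment ran over 22746 probe sets in each of 3 comparisons: WT 1 h with WT 0 h, WT 72 h with WT 1 h, and the change at 1 h in ACX minus that in WT. The script was tested on simulated data. A further comparison, ACX 1 h with ACX 0 h, gave the calls in ACX, from the same fit and with the same adjustment. The p-values cover the spread between pools of plants.

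Of the probe sets, 13513 pair with 1 gene in the platform annotation; where a gene had several, the brightest over the 24 arrays was used. The 37 lists written by locus code hold 600 loci, of which 114 were measured, and 33 families were formed by symbol. Named genes are the 20 largest increases and decreases without overlap, called list members and the 5 smallest p each way for the genotype difference. The members, lists and families were chosen with earlier results of these data known; the families and the genes named from them, and further locus-code neighbours, were chosen with their values in view. Promoter sequences were not analysed here. Alternatives were another scaling, filters on low levels, other priors, array weights, subsets of arrays and a replicate block.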

Additional observations from a re-analysis of the deposited data

Results flagged for a closer look

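For 26 of the 173 genes named or among the 20 largest changes each way, 1 of the 6 WT 0 h arrays stood apart from the other 5, by a gap of more than 0.625 of the group's range. About 5% of such groups show this by chance. The array was replicate 3 for 20 of the genes and replicate 5 for 6, so the genes are not independent of each other. The share of the range that the gap takes is given in brackets. Replicate 3 was the highest WT 0 h array for IAA29 (0.741), HAT2 (0.786), GSTU18 (0.695), CYP71B22 (0.757), AT1G13650 (0.679), PORB (0.863), HEME1 (0.653) and HEME2 (0.713). It was the lowest for UGT84A3 (0.752), NDB2 (0.815), Hsp70-2 (0.821), BZIP60 (0.747), AT2G40460 (0.793), AT5G14700 (0.694), WRKY53 (0.698), PUB19 (0.815), PUB26 (0.727), TBL26 (0.799), AT4G13800 (0.871) and AT5G59130 (0.831). Replicate 5 was the highest for GID1A (0.734), BZIP28 (0.7), AT2G41730 (0.689), AT5G17350 (0.727) and SWEET4 (0.63), and the lowest for CFM3A (0.691). PUB19 at replicate 3 read 6.50, against 9.86 to 10.62 in the other WT 0 h arrays, and PORB read 10.52, against 8.99 to 9.20.

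The log2 change at 1 h differed between ACX and WT in limma's test of the difference for 10 named genes. The change in ACX minus that in WT was 2.74 for COR15A and 2.15 for AT5G03230, which were higher in ACX. It was -2.77 for XTH18, -2.29 for AT5G48570, -2.27 for AT4G17470 and -1.42 for GTR1, which were lower. It was -1.20 for AT1G69840, -1.16 for AT5G44060, -1.15 for APS3 and -1.03 for AT5G42250. The calls of APS3 and AT5G03230 held in all 28 alternatives. Of the other 8, COR15A was lost in 9 (adjusted p up to 0.145), AT5G44060 and AT5G42250 in 4 each, AT5G48570 and GTR1 in 3 each, and XTH18, AT1G69840 and AT4G17470 in 1 each. Without WT 0 h replicate 3 the 10 differences kept their sign and their call.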

How the results depend on the processing

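The limits of the WT 1 h comparison lie in 3 arrays at 1 h, in WT 0 h arrays of unstated spraying and sampling, and in probe sets near background, where differences are compressed. No probe set called in the main fit was called in the opposite direction in any alternative. The number of called probe sets was 4371 to 6349 when 1 array was left out (1895 to 2602 higher, 2476 to 3747 lower), the fewest without WT 1 h replicate 1 and the most without WT 0 h replicate 3. It was 5155 with WT 0 h replicates 1 to 3 alone, 7888 with replicates 4 to 6 alone and 8576 with array weights. When arrays were centred on their medians, the median change shifted by 0.05 and 2901 higher and 2910 lower calls were made. Of 171 genes called at 1 h that are named or among the 20 largest changes each way, 142 were called in every one of the 20 alternatives that tested them and 29 were not; without WT 0 h replicate 3, AT2G04050, BZIP28, WRKY6 and LTI30 were lost. XTH18, not called in WT at 1 h, changed by -0.10 without WT 1 h replicate 1 and by 0.51 without WT 1 h replicate 2, and by 0.26 with both.

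The genotype difference was the least stable count. Against 33 calls (12 higher, 21 lower), leaving out 1 array gave 6 to 138 (2 to 74 higher, 4 to 64 lower), array weights gave 322 (173 higher, 149 lower), 0 h replicates 1 to 3 gave 17 (8 lower) and 0 h replicates 4 to 6 gave 1122 (558 higher, 564 lower). Without the lowest 50% of probe sets, 35 were lower. The cause was not tested. Between WT 72 h and WT 1 h, centring gave 4316 higher and 10451 lower calls, against 5736 and 5557, and testing the upper 50% of probe sets gave 7335 calls (3230 lower), fewer because fewer were tested.

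Same-numbered WT 1 h and WT 0 h arrays deviated from their group means with correlations of -0.05, 0.26 and 0.18, so the numbers were not taken to pair the samples. With the replicate block, 5377 probe sets were called at 1 h, and 18 (7 higher, 11 lower) for the genotype difference.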
